A study of Mus musculus with 6 samples.

Results

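The genes described here encode plasma membrane and lysosomal carriers of amino acids and related molecules in lesional mouse skin. They were chosen by a rule on names, set with earlier results of these data known. It took every symbol of the SLC1, SLC3, SLC6, SLC7, SLC38 and SLC43 families written as the family number followed by a and a number. Slc7a11 was left out of the set, and symbols that end in a letter do not match. The rule gave 56 of the 35434 genes in the table, 7 in SLC1, 2 in SLC3, 19 in SLC6, 14 in SLC7, 11 in SLC38 and 3 in SLC43. Of these, 33 had at least 0.5 FPKM (fragments per kilobase of gene, scaled to library size) in at least 3 of the 6 samples.

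The samples were lesional skin of psoriasis mice into which regulatory T cells (Tregs) had been transferred. The Lenv-Treg group had 3 samples from mice given Tregs treated with lenvatinib, an inhibitor of receptor tyrosine kinases, and the Ctrl-Treg group had 3 from mice given control Tregs. All 6 samples therefore come from diseased skin with transferred cells, and neither healthy skin nor skin without transfer was analysed here. The sources used here give no strain, age or way of inducing disease, and do not say whether replicates are separate animals. The p-values therefore reflect sample-to-sample spread, which may be technical. No gene in the table records which cells a mouse received, and the groups rest on the labels.

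Amino acid carriers work in families that differ in substrate and in what drives transport. SLC1 and SLC38 carriers use the sodium gradient to bring in glutamate or small neutral amino acids such as glutamine, alanine and serine. SLC6 holds sodium- and chloride-coupled carriers of amino acids, but also of taurine, creatine, betaine and monoamine transmitters. SLC7 holds cationic amino acid carriers and the light chains of heteromeric exchangers, which reach the cell surface only when bound to a heavy chain of the SLC3 family. In SLC43, Slc43a1 and Slc43a2 move branched-chain and other large neutral amino acids without sodium, while Slc43a3 is known as a carrier of purine nucleobases. In epidermis and in activated immune cells such uptake feeds protein synthesis and the mTORC1 kinase, which senses amino acids at the lysosome.

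Depth was close to even. Whole reads recovered from the steps of the FPKM values summed to between 38323440 and 39864820 per sample, a ratio of 1.04. Across tested genes, Pearson correlations of log2(FPKM + 1) ran between 0.984 and 0.992 inside a group and between 0.897 and 0.939 for samples of different groups. Skin markers were present in all samples, with the 8 basal keratinocyte genes summing to 6138 to 6271 FPKM in Lenv-Treg and 1805 to 2188 FPKM in Ctrl-Treg. Of these 8 genes, 4 rose and 2 fell, with a median log2 difference of 0.38. The libraries differed widely in other cell type markers. The 15 neutrophil genes summed to 38216 to 53980 FPKM in Lenv-Treg and 81.9 to 237 FPKM in Ctrl-Treg. Of the 14 tested, 13 rose and 0 fell, with a median log2 difference of 2.74. A sum weighs the genes with the highest FPKM most, so it does not measure the number of cells. The 12 hair follicle genes summed to 16.8 to 29.7 FPKM in Lenv-Treg and 1387 to 2978 FPKM in Ctrl-Treg. Of the other lists, 7 of 8 melanocyte and 4 of 7 fibroblast markers fell with none higher, 1 of 7 tested T cell markers rose and 1 fell, and 2 of 8 endothelial markers rose with none lower. Of 8 suprabasal keratinocyte markers 1 rose and 3 fell, and 4 of 7 sebocyte markers fell with none higher. These calls are from the limma test described below, in which 30.8% of all tested genes were lower and 11.0% higher. No listed marker in the table was at 0 in all samples. The part of these cell types in the results for transporters was not tested.

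Amino acid transporter genes moved in both directions, with more of them lower than higher in Lenv-Treg. In limma on log2(FPKM + 1), adjusted over all 13945 genes tested, 5 of the 33 tested members rose and 14 fell at an adjusted p under 0.05. Differences given below are on this log2 scale, Lenv-Treg minus Ctrl-Treg, and understate the change of genes with low FPKM. Called members were 57.6% of the tested members, against 41.7% of all tested genes. Members higher made up 15.2%, against 11.0% of all tested genes, and members lower 42.4%, against 30.8%. The members' median difference, Lenv-Treg minus Ctrl-Treg, was -0.16, beside -0.17 for all tested genes. This median depended on scaling, at -0.44 for both members and all tested genes after rescaling to TPM, and at 0.04 for members and 0.00 for all genes after scaling to equal medians of ratios. The split of calls moved with it, to 2 members higher and 15 lower in TPM, where 6.79% of all tested genes were higher and 57.2% lower. It moved to 11 higher and 9 lower after median-ratio scaling (17.3% of all genes each way), and to 11 higher and 9 lower after quantile normalization (16.0% and 16.5%). Values did not overlap between the groups for 22 members (66.7%, beside 55.4% of all tested genes), 8 higher and 14 lower (beside 14.4% and 41.0%). Slc6a12, Slc6a13 and Slc6a17 passed the filter through 1 group only, so these counts support nothing by themselves. In bulk skin, fewer cells of a type and less RNA per cell cannot be told apart.

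A group of 10 members was called in every fit that tested them among 18, including each scaling and each fit without 1 library. These were Slc6a14 and Slc6a12, which rose, and Slc1a4, Slc6a19, Slc6a17, Slc6a2, Slc7a10, Slc7a1, Slc38a3 and Slc38a4, which fell. All 19 called members kept the direction of their difference in every fit that tested them. Of the 10, Slc6a12 and Slc6a17 passed the filter through a single group. The fits draw on the same 6 libraries and are not independent checks.

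**Figure D1:**
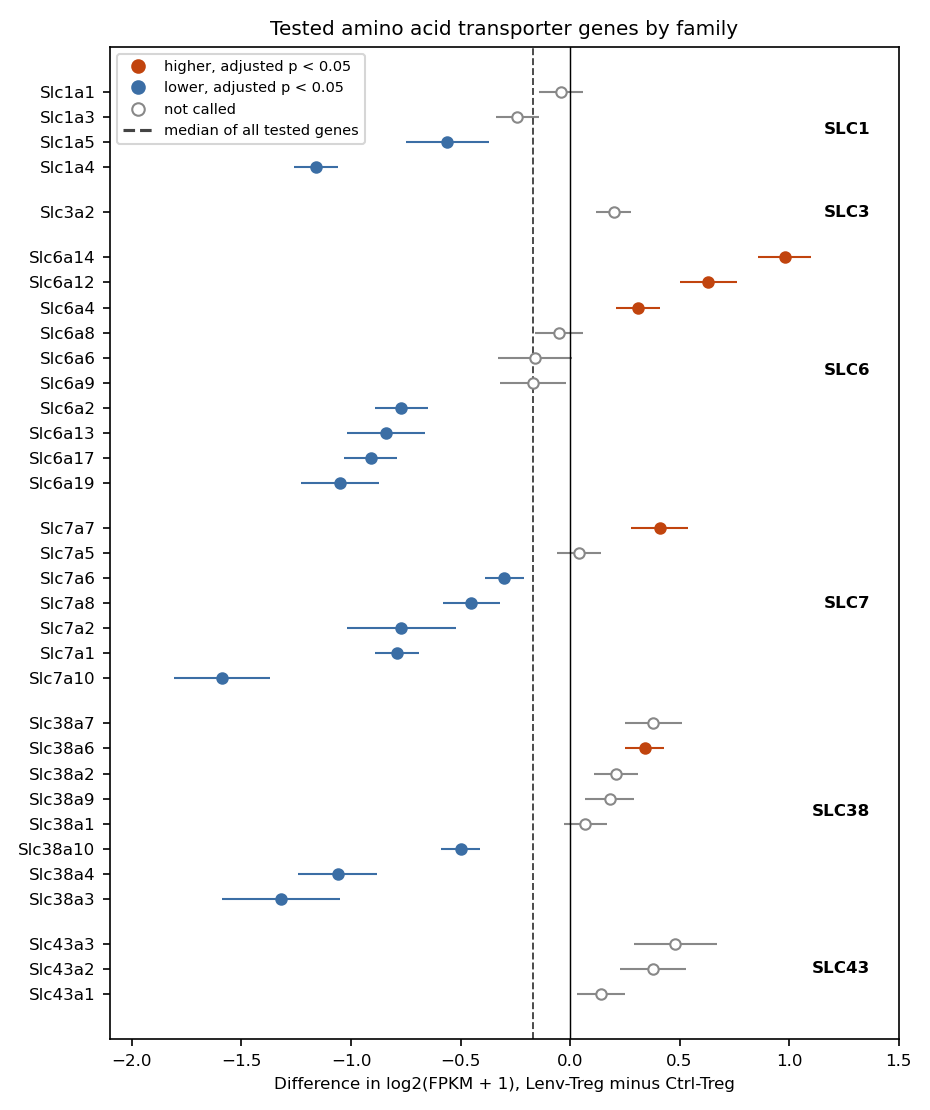
Differences in log2(FPKM + 1), Lenv-Treg minus Ctrl-Treg, for the 33 tested genes in 6 families, with bars for 1 SE from limma and a dashed line at the median of all tested genes (-0.17). Filled points passed an adjusted p of 0.05, 5 to the right and 14 to the left, and Slc7a10 lies farthest to the left at -1.59.

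**Figure D2:**
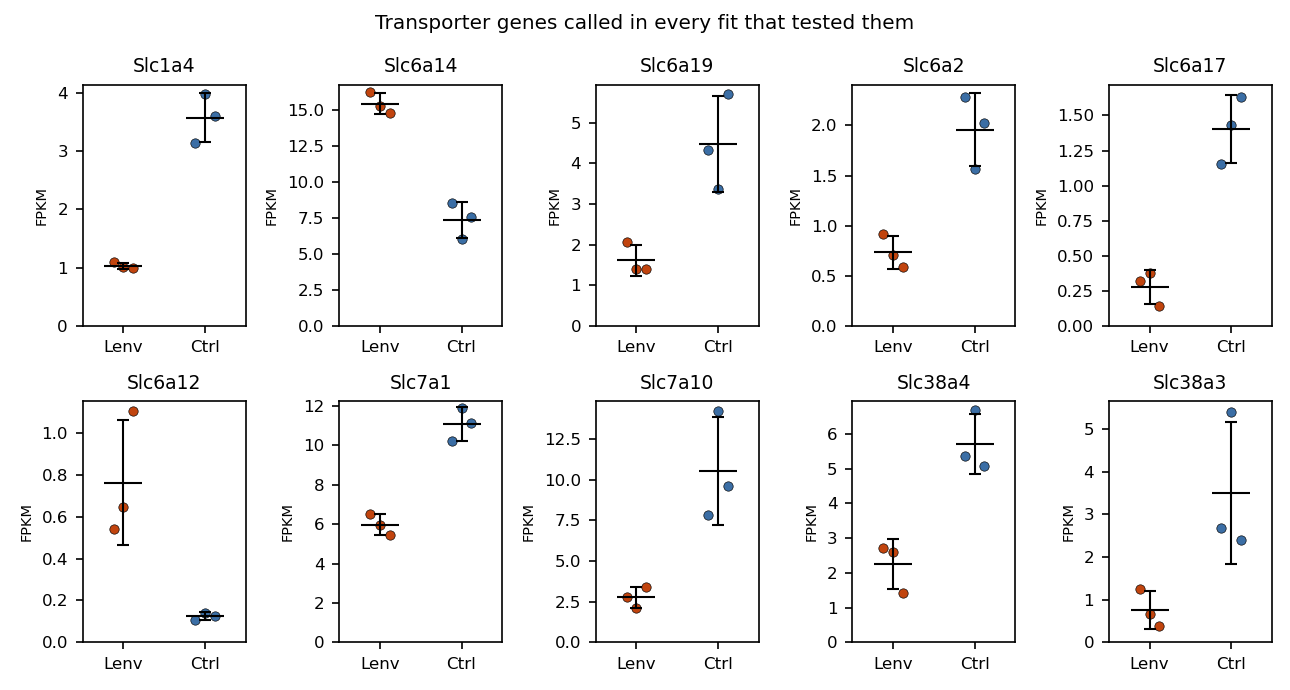
FPKM in each library for the 10 genes called in every fit that tested them, Lenv-Treg at left and Ctrl-Treg at right, with the mean and SD of 3 libraries. The groups do not overlap in any of the panels, and Slc6a14 and Slc6a12 are the ones with the higher values in Lenv-Treg. Slc6a12 and Slc6a17 passed the filter through a single group.

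In the SLC1 family the neutral amino acid carriers Slc1a4 and Slc1a5 fell, and the glutamate carriers did not pass. Slc1a5 (ASCT2, a sodium-dependent exchanger best known for glutamine uptake) held most of the family's level, 87.3% ± 1.20 of its summed FPKM in Lenv-Treg and 86.9% ± 2.09 in Ctrl-Treg (SD, n = 3). Its level was 40.8, 41.5 and 54.1 FPKM in Lenv-Treg, against 60.6, 87.4 and 56.3 FPKM in Ctrl-Treg. The groups did not overlap, but the highest Lenv-Treg library came within a few FPKM of the lowest Ctrl-Treg one. The difference was -0.56 (SE 0.19, adjusted p = 0.0481), and the call was lost when replicate 1 or 2 of Lenv-Treg or replicate 1 or 2 of Ctrl-Treg was left out (highest adjusted p = 0.141). Median-ratio scaling also ended it (-0.35, adjusted p = 0.185).

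Slc1a4 (ASCT1) exchanges alanine, serine and cysteine. It stood at 1.10, 1.01 and 1.00 FPKM in Lenv-Treg, against 3.14, 3.98 and 3.61 FPKM in Ctrl-Treg. All 3 Lenv-Treg libraries were tightly grouped and lay well below every Ctrl-Treg library. The difference was -1.16 (SE 0.10, adjusted p = 0.000192), and the mean in Lenv-Treg was 28.9% of that in Ctrl-Treg, from 487 and 1656 reads over the groups. Its share of the family's FPKM was 2.03% ± 0.356 in Lenv-Treg and 4.67% ± 0.708 in Ctrl-Treg (SD, n = 3).

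The promoter of Slc1a4 is shown because this gene is 1 of 2 tested members with a promoter that holds the core of the C/EBP-ATF response element, through which ATF4 acts on amino acid response genes. The motif searched was TGATGNAA on either strand, with overlapping matches counted. It was present in 2 of 24 tested members with a promoter in the RefSeq table (8.33%), in 2.82% of tested genes with one, and in 3.97% of all 32851 promoters of this length. Each promoter runs from 250 bases before to 50 bases after a gene's start in RefSeq GRCm38.p6, while the submitters' processing notes name GRCm39. A match describes the reference sequence and does not show a bound site. The Slc1a4 promoter lies at chr11:20332664-20332963 on the minus strand, and capitals mark the match, on the reverse strand, whose first base is 4 bases before the start.
Slc1a4: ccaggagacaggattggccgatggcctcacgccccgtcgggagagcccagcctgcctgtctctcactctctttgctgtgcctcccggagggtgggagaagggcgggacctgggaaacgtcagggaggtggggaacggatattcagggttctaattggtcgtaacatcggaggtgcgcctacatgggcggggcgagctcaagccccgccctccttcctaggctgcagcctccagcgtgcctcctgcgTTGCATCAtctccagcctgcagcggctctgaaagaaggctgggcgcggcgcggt

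The glutamate carriers of SLC1 were lower in level than Slc1a5. Slc1a3 (EAAT1) averaged 3.95 ± 0.466 FPKM in Lenv-Treg and 4.85 ± 0.286 FPKM in Ctrl-Treg (SD, n = 3), a difference of -0.24 (SE 0.10) that did not pass (adjusted p = 0.0961) except after rescaling to TPM (adjusted p = 0.00735). Slc1a1 (EAAT3) averaged 1.29 ± 0.233 FPKM in Lenv-Treg and 1.35 ± 0.0673 FPKM in Ctrl-Treg (SD, n = 3; adjusted p = 0.757). Slc1a2, Slc1a6 and Slc1a7 lay outside the filter.

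The heavy chain Slc3a2 (CD98), which carries the leucine-type exchangers of SLC7 to the surface, did not pass. Its level was 14.4, 14.4 and 15.5 FPKM in Lenv-Treg, against 12.7, 13.2 and 12.2 FPKM in Ctrl-Treg. The groups did not overlap. The difference was 0.20 (SE 0.08, adjusted p = 0.0881), and it passed after median-ratio scaling (0.40, adjusted p = 0.00953) but turned to -0.07 in TPM (adjusted p = 0.568). Slc3a1, the heavy chain of the cystine and basic amino acid exchanger of kidney and gut, had 10 and 11 reads over the Lenv-Treg and Ctrl-Treg groups, and its light chain Slc7a9 had none in any library.

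The SLC7 family had 1 member higher and 5 lower among 7 tested (14.3% and 71.4%, beside 11.0% and 30.8% of all tested genes). The lower calls of Slc7a2, Slc7a6 and Slc7a8 were lost after median-ratio scaling. Slc7a5 (LAT1), the leucine and aromatic amino acid exchanger of dividing and activated cells, had the highest level in the family. It measured 18.8, 18.8 and 22.4 FPKM in Lenv-Treg, against 18.1, 19.4 and 20.8 FPKM in Ctrl-Treg. The groups overlapped, and the difference of 0.04 (SE 0.10) did not pass (adjusted p = 0.789) in any of the 18 fits.

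Slc7a10 (Asc-1), a light chain that exchanges small neutral amino acids including D-serine and is known from brain and adipocytes, fell. Its level was 2.80, 2.10 and 3.39 FPKM in Lenv-Treg, against 7.81, 14.2 and 9.58 FPKM in Ctrl-Treg. Even the lowest Ctrl-Treg library was well above the highest Lenv-Treg one. The difference was -1.59 (SE 0.22, adjusted p = 0.00127), the lowest among members on the log2(FPKM + 1) scale. The mean in Lenv-Treg was 26.2% of that in Ctrl-Treg, and by this measure Slc6a13, Slc6a17 and Slc38a3 were lower still. Of 8 adipocyte markers, 4 fell and 0 rose, beside 30.8% of all tested genes lower and 11.0% higher. Their summed level was 1138 to 1444 FPKM in Lenv-Treg and 1157 to 1820 FPKM in Ctrl-Treg. The part of adipocytes in the Slc7a10 result was not tested.

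Both cationic amino acid carriers tested fell. Slc7a1 (CAT1), the general importer of arginine and lysine, was at 6.52, 5.96 and 5.44 FPKM in Lenv-Treg, against 10.2, 11.9 and 11.1 FPKM in Ctrl-Treg. The libraries within each group were close together and the groups were apart. The difference was -0.79 (SE 0.10, adjusted p = 0.000984). Slc7a2 (CAT2), an arginine carrier of activated macrophages among other cells, was at 3.05, 1.38 and 1.19 FPKM in Lenv-Treg, against 4.73, 3.76 and 2.85 FPKM in Ctrl-Treg. Lenv-Treg replicate 1 lay within the Ctrl-Treg range. The difference was -0.77 (SE 0.25, adjusted p = 0.0418), which no longer passed when replicate 2 or 3 of Lenv-Treg or replicate 1 or 2 of Ctrl-Treg was left out (highest adjusted p = 0.129), nor with median-ratio scaling (adjusted p = 0.0934). Of 14 monocyte and macrophage markers in these libraries, 8 were higher and 1 lower, beside 11.0% of all tested genes higher and 30.8% lower. Their part in the Slc7a2 and Slc7a7 values was not tested.

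The other light chains of Slc3a2 split. Slc7a7 (y+LAT1), which exports arginine and lysine and is expressed in macrophages, averaged 4.30 ± 0.655 FPKM in Lenv-Treg and 2.99 ± 0.504 FPKM in Ctrl-Treg (SD, n = 3) and rose by 0.41 (SE 0.13, adjusted p = 0.0436). Slc7a8 (LAT2), an exchanger of large and small neutral amino acids, averaged 5.06 ± 0.612 FPKM in Lenv-Treg and 7.26 ± 1.06 FPKM in Ctrl-Treg (SD, n = 3) and fell by 0.45 (SE 0.13, adjusted p = 0.0288). Slc7a6 (y+LAT2), a close relative of Slc7a7, averaged 1.91 ± 0.137 FPKM in Lenv-Treg and 2.57 ± 0.0103 FPKM in Ctrl-Treg (SD, n = 3) and fell by 0.30 (SE 0.09, adjusted p = 0.0275). Groups did not overlap for any of the 3 genes, and leaving out 1 library moved no fold of the means by more than 1.10 times, but each call lay close to the threshold. Slc7a7 was lost without replicate 2 or 3 of either group (highest adjusted p = 0.129), Slc7a8 without Lenv-Treg replicate 1 or 3 or Ctrl-Treg replicate 2 or 3 (0.0879), and Slc7a6 without any library but Lenv-Treg replicate 1 (0.103). The call of Slc7a7 also ended in TPM (adjusted p = 0.246), and those of Slc7a8 and Slc7a6 after median-ratio scaling (adjusted p = 0.139 and 0.184).

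The Slc7a7 promoter at chr14:54417895-54418194 on the minus strand also holds the response element core, and it is shown because its gene rose while Slc1a4 fell. RefSeq lists 5 promoters for the gene, of which 2 hold the motif. Capitals mark the matches on the forward strand, whose first bases are 141 bases and 1 base before the start.
Slc7a7: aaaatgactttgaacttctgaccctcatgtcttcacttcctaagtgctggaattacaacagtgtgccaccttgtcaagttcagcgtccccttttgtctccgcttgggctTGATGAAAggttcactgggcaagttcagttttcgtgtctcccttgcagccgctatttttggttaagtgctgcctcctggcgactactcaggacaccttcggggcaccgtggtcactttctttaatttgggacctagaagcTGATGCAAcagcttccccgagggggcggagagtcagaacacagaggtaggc

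Set against the heavy chain, the 5 light chains Slc7a5, Slc7a6, Slc7a7, Slc7a8 and Slc7a10 had a lower ratio in all 3 Lenv-Treg libraries. Their summed FPKM was 34.0 ± 2.66 in Lenv-Treg and 42.8 ± 4.35 in Ctrl-Treg (SD, n = 3). Divided by the FPKM of Slc3a2 this gave 2.25, 2.26 and 2.40 in Lenv-Treg, against 2.99, 3.54 and 3.58 in Ctrl-Treg. The means were 2.30 ± 0.0805 in Lenv-Treg and 3.37 ± 0.326 in Ctrl-Treg (SD, n = 3), with no overlap (exact two-sided permutation p = 0.1, the smallest possible with 3 against 3). A ratio within a library does not depend on scaling between libraries.

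Slc7a10 made up 8.08% ± 1.43 of it in Lenv-Treg and 24.3% ± 5.43 in Ctrl-Treg, and Slc7a5 58.7% ± 1.39 in Lenv-Treg and 45.6% ± 3.40 in Ctrl-Treg (SD, n = 3). One further light chain, Slc7a11 (xCT, the cystine and glutamate exchanger), is outside the set but shares the heavy chain. It was at 17.1, 12.7 and 19.0 FPKM in Lenv-Treg, against 0.477, 0.389 and 0.306 FPKM in Ctrl-Treg. With it in the sum, the ratio to Slc3a2 was 3.40 ± 0.244 in Lenv-Treg and 3.40 ± 0.319 in Ctrl-Treg (SD, n = 3; exact permutation p = 1.0). Slc7a11 alone was then 32.2% ± 3.62 of the light chain FPKM in Lenv-Treg and 0.921% ± 0.284 in Ctrl-Treg (SD, n = 3).

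**Figure D3:**
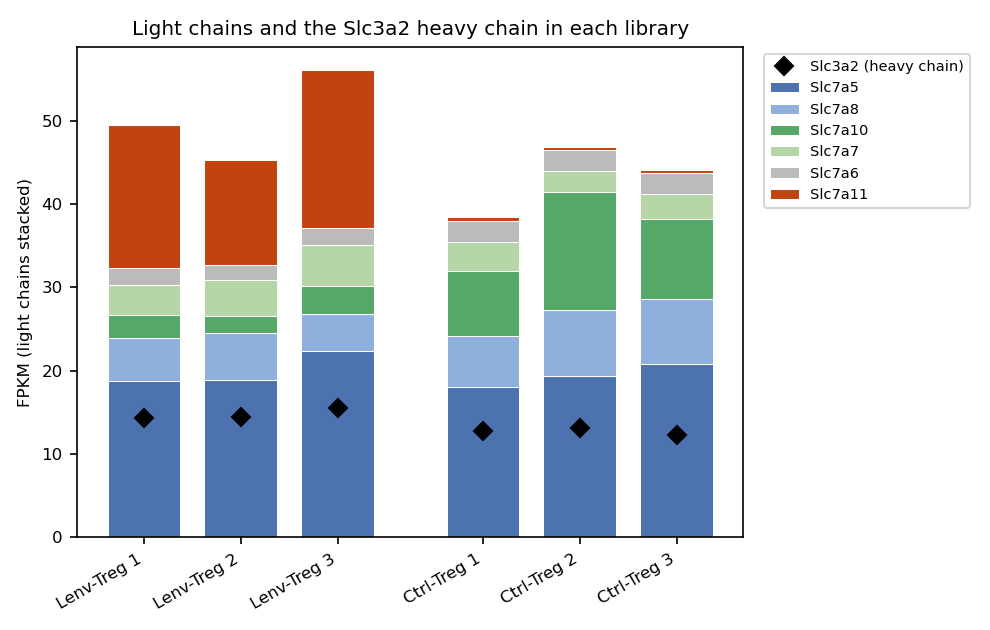
FPKM of the Slc3a2 light chains, stacked, and of the heavy chain Slc3a2 (diamonds) in each of the 6 libraries, Lenv-Treg at left. Slc7a11 fills 28.0% to 34.7% of the bars in Lenv-Treg, against 0.694% to 1.24% of those in Ctrl-Treg, while the segments of Slc7a10, Slc7a8 and Slc7a6 are taller in Ctrl-Treg.

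The SLC6 family had 3 members higher and 4 lower among 10 tested, beside 11.0% of all tested genes higher and 30.8% lower. Among these calls, Slc6a12, Slc6a13 and Slc6a17 passed the filter through 1 group only. The family's levels were dominated by carriers of molecules that are not used for protein synthesis. Slc6a6 (TauT, taurine) was at 36.2, 29.9 and 23.2 FPKM in Lenv-Treg, against 37.2, 32.3 and 29.7 FPKM in Ctrl-Treg. The groups overlapped, and the difference of -0.16 (SE 0.17) did not pass (adjusted p = 0.459). Slc6a8 (creatine) averaged 29.8 ± 3.60 FPKM in Lenv-Treg and 30.6 ± 1.54 FPKM in Ctrl-Treg (SD, n = 3; adjusted p = 0.759). Slc6a9 (GlyT1, glycine) averaged 4.12 ± 0.856 FPKM in Lenv-Treg and 4.74 ± 0.796 FPKM in Ctrl-Treg (SD, n = 3; adjusted p = 0.405).

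Slc6a14 (ATB0,+), a concentrative carrier of neutral and basic amino acids at epithelial surfaces, rose. Its level was 16.3, 15.3 and 14.8 FPKM in Lenv-Treg, against 8.55, 6.05 and 7.53 FPKM in Ctrl-Treg. Every Lenv-Treg library was well above every Ctrl-Treg library. The difference was 0.98 (SE 0.12, adjusted p = 0.000957), a fold of 2.09 from 6352 and 2995 reads over the groups. It made up 17.9% ± 1.33 of the family's FPKM in Lenv-Treg and 8.31% ± 1.00 in Ctrl-Treg (SD, n = 3). Of 8 activated keratinocyte markers in the same libraries, 7 rose and 0 fell, beside 11.0% of all tested genes higher and 30.8% lower. Their summed level was 8849 to 12713 FPKM in Lenv-Treg and 549.1 to 897.6 FPKM in Ctrl-Treg. The part of activated keratinocytes in the Slc6a14 result was not tested.

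Slc6a19 (B0AT1), the neutral amino acid carrier known from gut and kidney, fell. Its level was 2.06, 1.40 and 1.39 FPKM in Lenv-Treg, against 4.33, 3.37 and 5.71 FPKM in Ctrl-Treg. The groups were clearly apart. The difference was -1.05 (SE 0.18, adjusted p = 0.00312). Slc6a18, its relative and the next protein-coding gene on chromosome 13, lay outside the filter with 6 reads over the Lenv-Treg group and 42 over the Ctrl-Treg group. No Slc6a18 values overlapped between the groups (exact permutation p = 0.1, the smallest possible), and in limma with no filter it passed (-0.10, adjusted p = 0.00338).

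Slc6a17 (NTT4), a neutral amino acid carrier of synaptic vesicles, was low and fell. It was at 0.321, 0.376 and 0.143 FPKM in Lenv-Treg, against 1.15, 1.43 and 1.63 FPKM in Ctrl-Treg. No Lenv-Treg library reached the filter minimum, so the gene entered the test through Ctrl-Treg alone. The difference was -0.91 (SE 0.12, adjusted p = 0.000943), from 220 reads over the Lenv-Treg group and 1082 over the Ctrl-Treg group.

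The monoamine carriers of the family moved apart. Slc6a2 (noradrenaline reuptake, a feature of sympathetic nerves) averaged 0.733 ± 0.167 FPKM in Lenv-Treg and 1.96 ± 0.365 FPKM in Ctrl-Treg (SD, n = 3) and fell by 0.77 (SE 0.12, adjusted p = 0.00268). Slc6a4 (serotonin reuptake) averaged 3.90 ± 0.399 FPKM in Lenv-Treg and 2.94 ± 0.0864 FPKM in Ctrl-Treg (SD, n = 3) and rose by 0.31 (SE 0.10, adjusted p = 0.0352). That rise did not pass without any library but Lenv-Treg replicate 1 (highest adjusted p = 0.097) or in TPM (adjusted p = 0.456). Among 7 Schwann cell and nerve markers 4 fell and 0 rose, beside 30.8% of all tested genes lower and 11.0% higher. These markers had a summed level of 110.9 to 115 FPKM in Lenv-Treg and 137.7 to 186.4 FPKM in Ctrl-Treg. Their part in the Slc6a2 and Slc6a17 results was not tested.

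Slc6a12 and Slc6a13, neighbouring protein-coding genes on chromosome 6, moved in opposite directions, a pair singled out after the values were seen. Slc6a12 (BGT1), a carrier of the osmolyte betaine and of GABA, was at 0.541, 0.644 and 1.10 FPKM in Lenv-Treg, against 0.106, 0.142 and 0.127 FPKM in Ctrl-Treg. Slc6a13 (GAT2), a carrier of GABA and taurine, was at 0.205, 0.263 and 0.190 FPKM in Lenv-Treg, against 0.704, 1.14 and 1.85 FPKM in Ctrl-Treg. Both groups were apart for both genes, and each entered the test through the group where it was higher. Slc6a12 rose by 0.63 (SE 0.13, adjusted p = 0.0065), a fold of 6.09 from 278 and 45 reads over the groups. Slc6a13 fell by 0.84 (SE 0.18, adjusted p = 0.00814) to 17.8% of the Ctrl-Treg mean, from 77 and 424 reads, and did not pass after quantile normalization (-0.54, adjusted p = 0.0516).

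The SLC38 family had 1 member higher and 3 lower among 8 tested (12.5% and 37.5%, beside 11.0% and 30.8% of all tested genes). Slc38a2 (SNAT2), the stress-inducible sodium-coupled carrier of small neutral amino acids, had the family's highest level at 50.7, 48.1 and 52.3 FPKM in Lenv-Treg, against 40.9, 48.8 and 40.7 FPKM in Ctrl-Treg. Ctrl-Treg replicate 2 lay within the Lenv-Treg range. The difference was 0.21 (SE 0.10, adjusted p = 0.143), which passed after median-ratio scaling (0.42, adjusted p = 0.0157) and turned to -0.07 in TPM. Its share of the family's FPKM was 59.6% ± 2.65 in Lenv-Treg and 48.3% ± 1.67 in Ctrl-Treg (SD, n = 3).

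Slc38a3 (SNAT3), a glutamine carrier best known from liver, kidney and astrocytes, fell. It was at 1.26, 0.660 and 0.385 FPKM in Lenv-Treg, against 2.68, 5.40 and 2.40 FPKM in Ctrl-Treg. Ctrl-Treg replicate 2 stood well above the other Ctrl-Treg libraries, and the groups did not overlap. The difference was -1.32 (SE 0.27, adjusted p = 0.0076), and the mean in Lenv-Treg was 22.0% of that in Ctrl-Treg.

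Slc38a4 (SNAT4), a carrier of neutral amino acids known from liver and muscle, fell as well. It was at 2.71, 2.61 and 1.42 FPKM in Lenv-Treg, against 5.36, 6.68 and 5.06 FPKM in Ctrl-Treg. The groups were clearly apart. The difference was -1.06 (SE 0.18, adjusted p = 0.00354). None of 10 skeletal muscle markers passed, with a median difference of -0.84 and a summed level of 3172 to 4619 FPKM in Lenv-Treg and 3523 to 11398 FPKM in Ctrl-Treg, the highest value being in Ctrl-Treg replicate 2. The part of muscle in the Slc38a3 and Slc38a4 results was not tested.

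Slc38a10, a less studied relative that carries glutamine and glutamate, was at 19.6, 21.6 and 19.3 FPKM in Lenv-Treg, against 30.5, 29.2 and 27.1 FPKM in Ctrl-Treg. All Lenv-Treg libraries were below all Ctrl-Treg libraries. The difference was -0.50 (SE 0.09, adjusted p = 0.00495), a call that ended after median-ratio scaling (-0.30, adjusted p = 0.0561).

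Of the remaining SLC38 members only Slc38a6 passed. Slc38a6 (SNAT6) averaged 1.38 ± 0.151 FPKM in Lenv-Treg and 0.884 ± 0.0980 FPKM in Ctrl-Treg (SD, n = 3) and rose by 0.34 (SE 0.09, adjusted p = 0.0239), but not in TPM (adjusted p = 0.15) or without replicate 1 or 3 of either group (highest adjusted p = 0.0741). Slc38a7 (SNAT7), which exports glutamine and asparagine from lysosomes, averaged 6.59 ± 0.915 FPKM in Lenv-Treg and 4.84 ± 0.665 FPKM in Ctrl-Treg (SD, n = 3; adjusted p = 0.0516), a difference of 0.38 (SE 0.13) that passed after median-ratio scaling (adjusted p = 0.0138) and without Lenv-Treg replicate 3 (adjusted p = 0.0387). Slc38a9, the lysosomal arginine sensor of mTORC1, averaged 1.62 ± 0.144 FPKM in Lenv-Treg and 1.31 ± 0.243 FPKM in Ctrl-Treg (SD, n = 3; adjusted p = 0.208), and passed as higher after median-ratio scaling (0.31, adjusted p = 0.0481) and quantile normalization (0.46, adjusted p = 0.0121). Slc38a1 (SNAT1), next to Slc38a2 on chromosome 15, averaged 1.20 ± 0.0422 FPKM in Lenv-Treg and 1.11 ± 0.206 FPKM in Ctrl-Treg (SD, n = 3; adjusted p = 0.619), and passed as higher after quantile normalization alone (0.33, adjusted p = 0.0483).

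No SLC43 member passed after adjustment, though Slc43a2 and Slc43a3 had unadjusted p-values of 0.0431 and 0.0417 in limma and passed in some alternatives. Slc43a3, which is known as a carrier of purine nucleobases rather than of amino acids, had the highest level at 28.4, 27.8 and 20.2 FPKM in Lenv-Treg, against 20.9, 20.1 and 13.5 FPKM in Ctrl-Treg. Lenv-Treg replicate 3 lay within the Ctrl-Treg range. The difference was 0.48 (SE 0.19, adjusted p = 0.0848). Slc43a2 (LAT4) averaged 7.09 ± 0.980 FPKM in Lenv-Treg and 5.27 ± 1.06 FPKM in Ctrl-Treg (SD, n = 3; difference 0.38, SE 0.15, adjusted p = 0.0869). Slc43a1 (LAT3) averaged 4.09 ± 0.413 FPKM in Lenv-Treg and 3.63 ± 0.370 FPKM in Ctrl-Treg (SD, n = 3; difference 0.14, SE 0.11, adjusted p = 0.332, and -0.10 in TPM). It passed as higher after quantile normalization alone (0.37, adjusted p = 0.0316). After median-ratio scaling Slc43a3 and Slc43a2 passed (adjusted p = 0.0333 and 0.0276), and in TPM neither did (adjusted p = 0.459 and 0.571).

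**Figure D4:**
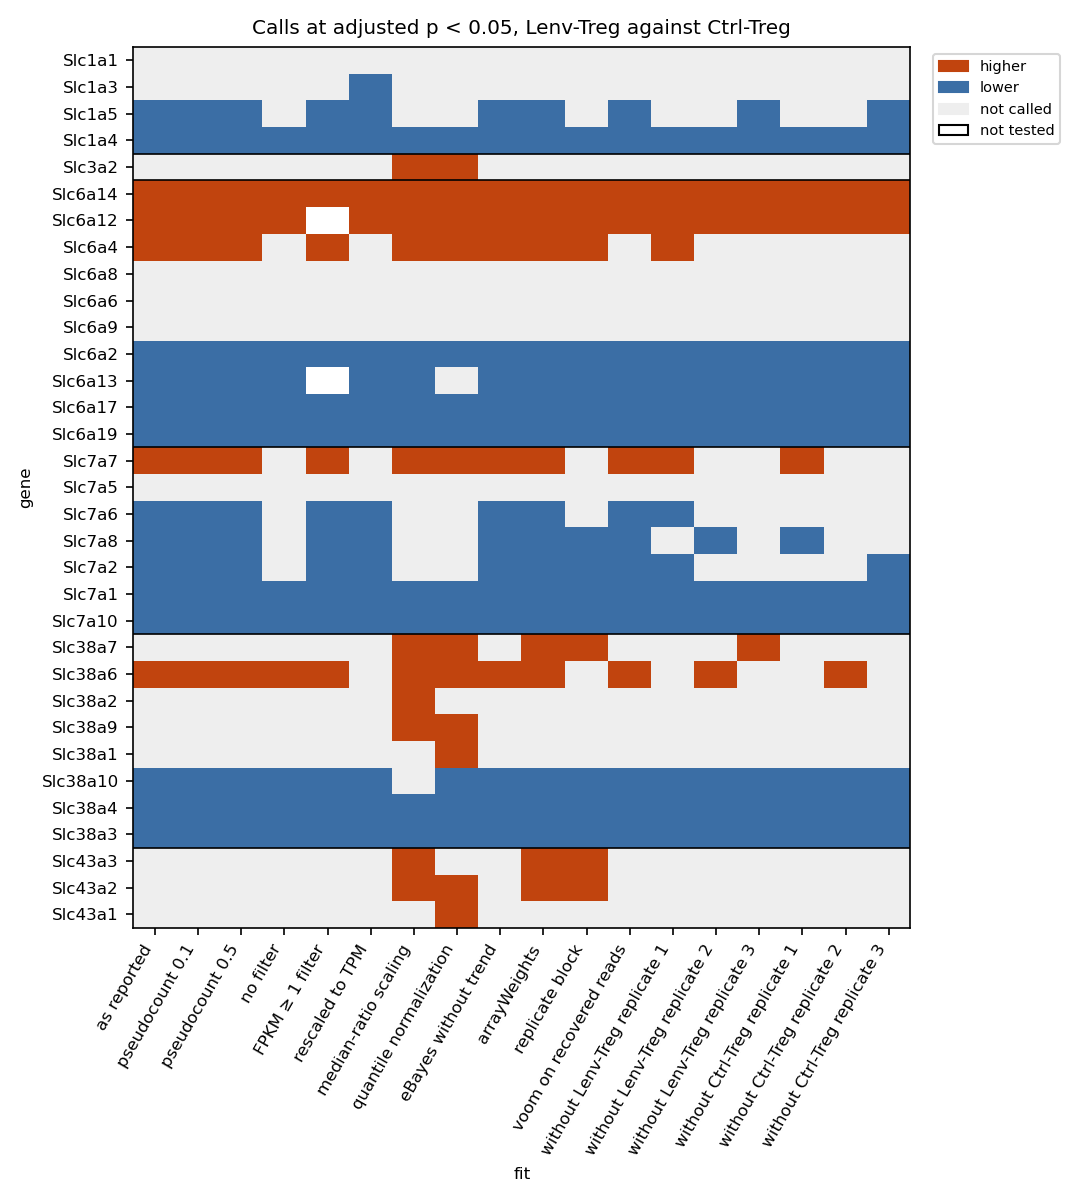
Calls at an adjusted p under 0.05 for the 33 tested genes (down, grouped by family) in 18 fits (across), red for higher and blue for lower in Lenv-Treg. For 10 genes every fit that tested them made the call, and the median-ratio and quantile columns each hold 11 higher and 9 lower calls, against 5 and 14 as reported.

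The 23 members outside the filter were low or silent in these libraries. At most 0.458 FPKM was reached, by Slc7a4, a relative of the cationic carriers without known amino acid transport, which averaged 0.423 ± 0.0515 FPKM in Lenv-Treg and 0.418 ± 0.0307 FPKM in Ctrl-Treg (SD, n = 3; exact permutation p = 0.8). By the third-highest library, Slc6a12 (0.541 FPKM) and Slc6a13 (0.704 FPKM) lay just inside the filter, and Slc7a4 (0.437 FPKM) and Slc38a11 (0.170 FPKM) just outside. Slc38a8, Slc6a5, Slc6a21, Slc7a9 and Slc7a12 were listed at 0 in all 6 libraries, where a count of 0 allows up to 3 reads over all 6. Of the 17 with a value above 0 in at least 3 libraries, Slc6a15 (B0AT2) and Slc6a18 reached the smallest possible exact permutation p of 0.1, both lower in Lenv-Treg. Slc6a15 had 44 reads over the Lenv-Treg group and 101 over the Ctrl-Treg group. The low members also included the brain carriers Slc1a2, Slc1a6, Slc6a3, Slc6a7 and Slc6a11, the retinal carrier Slc1a7, and Slc3a1, Slc6a16, Slc7a3, Slc7a13, Slc7a14, Slc7a15, Slc38a5 and Slc38a11.

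Amino acid and peptide carriers outside the set, Slc7a11 of SLC7 among them, gave 6 higher and 4 lower of 20 tested (median -0.14), beside 11.0% of all tested genes higher and 30.8% lower. This list was chosen with earlier results of these data known, as were the other lists below. Besides Slc7a11 (3.62, SE 0.15, adjusted p = 1.65e-05), Slc15a3, a lysosomal carrier of histidine and small peptides in immune cells, rose to 19.3 ± 3.97 FPKM in Lenv-Treg, against 7.52 ± 3.07 FPKM in Ctrl-Treg (SD, n = 3; adjusted p = 0.00838). Slc36a2, a proton-coupled carrier of glycine and proline, fell to 2.79 ± 0.447 FPKM in Lenv-Treg, against 6.03 ± 1.73 FPKM in Ctrl-Treg (SD, n = 3; adjusted p = 0.00742). Slc25a22, a mitochondrial glutamate carrier, fell by 0.47 (adjusted p = 0.0173). It missed the threshold when Lenv-Treg replicate 2 was left out (adjusted p = 0.067) and with median-ratio scaling.

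Integrated stress response genes, which include ATF4 and genes it activates when amino acids run short, gave 9 higher and 7 lower of 28 tested (median -0.05, beside -0.17 for all tested genes). These are 32.1% and 25.0% of the list, beside 11.0% of all tested genes higher and 30.8% lower. Stc2, which encodes a secreted glycoprotein, rose to 7.36 ± 1.27 FPKM in Lenv-Treg, against 2.41 ± 0.361 FPKM in Ctrl-Treg (SD, n = 3; adjusted p = 0.000493). Ppp1r15a, a phosphatase subunit that ends the response, rose by 0.94 (SE 0.12, adjusted p = 0.000977). Cbs, an enzyme that turns homocysteine into cystathionine, fell to 0.654 ± 0.297 FPKM in Lenv-Treg, against 12.7 ± 3.02 FPKM in Ctrl-Treg (SD, n = 3; adjusted p = 6.95e-05). Pycr1, a proline synthesis enzyme, fell by 1.29 (SE 0.16, adjusted p = 0.000942). Nupr1, with the highest level of the list, did not pass (-0.28, adjusted p = 0.356).

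Genes of amino acid sensing upstream of mTORC1 gave 0 higher and 7 lower of 35 tested in limma (median -0.21, beside -0.17 for all tested genes). That count of lower genes is a smaller share than the 30.8% over all tested genes. None was higher at an unadjusted p under 0.05 either (0 of 35), and voom on recovered reads also called 0 higher. Both keep the scaling to library size. With median-ratio scaling 3 were higher and 1 lower (17.3% of all tested genes each way). With quantile normalization 2 were higher and 2 lower (16.0% and 16.5% of all tested genes). Sesn3, a sestrin of the family that includes a leucine sensor, fell to 1.49 ± 0.379 FPKM in Lenv-Treg, against 4.96 ± 0.399 FPKM in Ctrl-Treg (SD, n = 3; difference -1.27, adjusted p = 0.000407). Nprl2, a subunit of the GATOR1 inhibitor complex, fell by 0.45 (adjusted p = 0.0152). It missed the threshold when Lenv-Treg replicate 2 was left out (adjusted p = 0.0551) and with median-ratio scaling. Lamtor1, a lysosomal anchor with the highest level of the list, did not pass (0.14, adjusted p = 0.388).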

How the data were processed

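The values used were FPKM, deposited by the authors as 1 table of 35434 genes by 6 samples, and all columns matched a sample title. The submitters' processing notes name GRCm39. Aligner, counter, annotation and filters: not given in the sources used here. TRIzol-extracted RNA and the VAHTS Universal V10 library kit are named per the labels' protocols.

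Because small FPKM values rise in equal steps worth 1 read each, relative depth and whole reads could be recovered. Whole reads (within 0.005 plus 3e-07 per read, up to a cap) were found for 13945 of the 13945 tested genes and 55 of the 56 members. For genes with very many reads a match within this tolerance can arise by chance. The count of genes matched therefore does not by itself show that recovery was right.

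Genes with at least 0.5 FPKM in at least 3 samples were tested with limma 3.58.1 in R 4.3.3 (trended eBayes, no covariates, two-sided) on log2(FPKM + 1), which understates changes of low genes, with Benjamini-Hochberg adjustment over all tested genes. Single values were tested by exact permutation. The steps were tested on simulated data.

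Alternatives covered the pseudocount (0.1 and 0.5), the filter, scaling (TPM, median ratios, quantile), the variance model, sample weights, the replicate block, limma's voom on recovered reads, the threshold and leaving out each library. The members and lists were chosen with earlier results of these data known. One member outside the filter is counted but not reported by name here. All members that passed the filter are named, with every sample given for the highest member of each family and its 3 largest called differences. From each list the 2 largest calls in each direction and the highest member are named. Intervals and floors cover counting error only.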

Additional observations from a re-analysis of the deposited data

How the results depend on the processing

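Leaving out 1 library gave 2 to 4 members higher and 10 to 12 lower, and a difference in the light chain ratio between -1.25 and -0.963. Adding Slc7a11 to the light chains turned that difference (Lenv-Treg minus Ctrl-Treg) from -1.07 to 0.00408, since its level was far higher in Lenv-Treg. Members higher, reported as 5, numbered 3 with no filter, 2 in TPM, 11 after median-ratio scaling, 11 after quantile normalization, 8 with array weights and 2 at an adjusted p under 0.01. Members lower, reported as 14, numbered 9 after median-ratio scaling and 9 after quantile normalization. Scaling shifted the median of all genes from -0.17 to -0.44 in TPM, 0.00 with median ratios and -0.01 with quantiles. Which scaling is right was not tested.

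Whether the title numbers shared by the groups pair the samples was not settled. Deviations from the group means correlated at 0.196, -0.011 and 0.328 between samples of the same number. Samples of unlike numbers were not compared. With the title numbers as a replicate block 6 members were higher and 12 lower. Slc1a5, Slc38a6, Slc7a6 and Slc7a7 were no longer called, and Slc38a7, Slc43a2 and Slc43a3 were called higher.

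Among the 20 tested carriers outside the set (Slc7a11 included), 3 were higher and 9 lower in TPM. The lower ones were 45.0% of the list, beside 57.2% of all tested genes (6.79% were higher). With median ratios 6 were higher and 1 lower (17.3% of all tested genes each way). With quantiles 7 were higher and 1 lower (16.0% and 16.5% of all tested genes). Leaving out 1 library gave 3 to 5 higher and 1 to 5 lower. Of the stress response genes, 4 were higher and 11 lower in TPM (39.3% lower, beside 57.2% of all tested genes). With median ratios 11 were higher and 2 lower, and with quantiles 10 were higher and 3 lower. Leaving out 1 library gave 9 to 10 higher and 4 to 6 lower. Of the mTORC1 sensing genes, 22 were lower in TPM (62.9%, beside 57.2% of all tested genes), 3 were higher and 1 lower with median ratios, 2 were higher and 2 lower with quantiles, and leaving out 1 library gave 0 higher and 3 to 8 lower. The cause of these moves was not tested. Reads limit the low members most, such as Slc6a12 with 45 reads over Ctrl-Treg.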
